A study of Mus musculus with 123 samples.

Results

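The wall of cortical blood vessels was read here through 10 genes, 8 of them chiefly endothelial and 2 mural. They are Cldn5, Pecam1 and Emcn (junction and surface proteins), Slc2a1 and Slco1a4 (blood-brain barrier transporters), Kdr and Flt1 (VEGF receptors), Apln (a secreted ligand), and Acta2 and Abcc9 (mural cells). The 10 genes were taken by name from a table of RNA levels for 13842 genes, and all 10 were found in it. RNA was measured in the cerebral cortex of 62 mice, males of the inbred strain C57BL/6J, aged 11 to 12 weeks and kept in 12 h of light and 12 h of dark. ATAC-seq, which marks accessible DNA by transposase insertion, was measured in 59 of these mice.

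The study asked how much of the daily variation of the cortex follows sleep and wake and how much follows time of day. Control mice slept freely and were killed at zeitgeber time (ZT, hours after lights on) 0 (n = 8), 3 (n = 3), 6 (n = 5), 12 (n = 5) or 18 (n = 5). The other mice were kept awake by gentle handling from ZT0 until ZT6, which is hour 24 to hour 30 on the study's clock, and 3 were killed at each later time. T27 mice had been kept awake for 3 h and T30 mice for 6 h. T36 and T42 mice had 6 h and 12 h in which to sleep afterwards, T48 to T66 mice were killed on the next day, T72 and T78 mice on the day after, and T192 and T198 mice on Day 8. The labels of the T36 samples place them within the deprivation, whereas the protocol ended it 6 h before, and the protocol was followed here. The labels name no genotype beyond the strain, and the animals are separate mice.

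As background, brain capillaries are lined by endothelial cells that are sealed by tight junctions and that carry glucose and other solutes across with dedicated transporters. Pericytes and smooth muscle cells, together called mural cells, wrap the endothelium and set vessel tone. VEGF-A from surrounding cells acts on endothelial cells through the receptor KDR, while FLT1 binds the same ligand tightly and acts largely as a trap. Vascular cells are a minority of cortical cells, so in whole tissue their transcripts are a small share of the RNA. In such bulk samples, fewer cells of a type and less RNA per cell cannot be told apart.

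The labelled tissue matched its markers: all 10 neuron genes of a fixed list, among them the excitatory cortical genes Slc17a7, Camk2a, Neurod6 and Tbr1, were present, with a log2 summed level of 12.8 to 13.0 in every group. Of the other lists, 26 of 27 endothelial, 25 of 26 barrier, and 20 of 24 mural genes were in the table. Choroid plexus genes, which come from tissue inside the ventricles, were represented by 3 of 8, and their log2 summed level was 7.36 to 8.56 in the ZT3 controls against 7.10 to 7.23 at T27. Per the labels, RNA libraries held more than 36 M reads each (median 55 M) and ATAC libraries more than 25 M (median 41 M). The RNA table gives log2 levels and the ATAC table normalized signal. Precision is limited by the number of animals and, at ATAC peaks of low signal, by the few reads behind the values. The latter limit was not weighed. Levels are compared between samples of 1 gene and not between genes, since the sources used here do not state any scaling by gene length.

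Promoter sequences of 5 members are shown, since each gene had a call in RNA and an ATAC peak over its start, so that both readouts can be set against the same DNA. They run from 250 bases before the start of the gene to 50 bases after it, 5′ to 3′ on the gene's strand. The source was RefSeq on GRCm38.p6, where 9 of the 10 members, all but Pecam1, had an entry. The start is that of the RefSeq entry, which for Kdr and Flt1 lies inside the annotated span of the gene. Capitals mark motif matches. The windows are Slc2a1 chr4:119108495-119108794 (plus strand), Cldn5 chr16:18776597-18776896 (plus), Kdr chr5:75978406-75978705 (minus), Flt1 chr5:147725962-147726261 (minus) and Apln chrX:48034804-48035103 (minus). The ATAC peak spans the whole window in Slc2a1, Cldn5, Kdr and Flt1 and the part around the start in Apln.
Slc2a1: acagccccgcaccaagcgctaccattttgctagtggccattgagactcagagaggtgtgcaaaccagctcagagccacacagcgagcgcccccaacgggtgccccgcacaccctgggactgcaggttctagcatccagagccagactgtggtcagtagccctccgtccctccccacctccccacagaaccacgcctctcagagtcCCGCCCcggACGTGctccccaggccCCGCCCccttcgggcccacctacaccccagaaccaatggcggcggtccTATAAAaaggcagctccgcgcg
Cldn5: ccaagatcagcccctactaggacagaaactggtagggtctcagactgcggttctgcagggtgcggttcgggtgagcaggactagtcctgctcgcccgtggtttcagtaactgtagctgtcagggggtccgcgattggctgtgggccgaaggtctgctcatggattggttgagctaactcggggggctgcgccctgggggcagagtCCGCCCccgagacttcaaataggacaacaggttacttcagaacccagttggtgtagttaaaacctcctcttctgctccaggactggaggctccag
Kdr: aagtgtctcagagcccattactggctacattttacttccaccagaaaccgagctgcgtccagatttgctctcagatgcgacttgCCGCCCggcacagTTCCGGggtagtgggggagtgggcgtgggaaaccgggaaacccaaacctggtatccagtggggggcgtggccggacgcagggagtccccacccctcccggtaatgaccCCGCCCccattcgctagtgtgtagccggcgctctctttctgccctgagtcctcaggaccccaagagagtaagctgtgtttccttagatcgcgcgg
Flt1: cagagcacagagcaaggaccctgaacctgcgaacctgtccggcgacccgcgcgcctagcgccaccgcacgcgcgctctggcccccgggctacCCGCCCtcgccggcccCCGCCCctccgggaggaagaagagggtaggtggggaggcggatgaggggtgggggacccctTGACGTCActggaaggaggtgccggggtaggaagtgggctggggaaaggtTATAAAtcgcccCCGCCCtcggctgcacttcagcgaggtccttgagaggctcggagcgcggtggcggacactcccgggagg
Apln: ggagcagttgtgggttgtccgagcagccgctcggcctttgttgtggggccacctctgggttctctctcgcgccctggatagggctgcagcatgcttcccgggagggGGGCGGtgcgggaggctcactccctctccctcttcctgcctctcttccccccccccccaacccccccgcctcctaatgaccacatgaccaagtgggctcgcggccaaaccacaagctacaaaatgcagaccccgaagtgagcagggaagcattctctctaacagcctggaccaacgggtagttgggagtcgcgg
Searched on both strands were the ETS core CCGGAA, the E-box CACGTG, the hypoxia response core ACGTG (which the E-box contains), the CRE core TGACG, the AP-1 motif TGANTCA, the GC box GGGCGG, the TATA box TATAAA and the CArG box. Among 32851 mouse promoter windows of the same length, 14.9% held the ETS core, 7.15% the E-box, 19.6% the hypoxia core, 20.8% the CRE core, 7.81% AP-1, 35.7% the GC box, 13.6% TATAAA and 1.63% a CArG box. Positions below are those of the first base counted from the start of the gene. The GC box was in all 5 printed windows and in that of Abcc9. Among the 9 windows, that of Slc2a1 alone held the hypoxia core, at position -36 between GC boxes at -45 and -20, and it held TATAAA at 28. In the Flt1 window, overlapping CRE matches on opposite strands began at -81 and -78, and TATAAA lay at -31. The Kdr window held the ETS core at -153. No searched motif was in the Emcn, Slco1a4 or Acta2 windows. The windows with a GC box were rich in CpG, from 12 sites in Cldn5 to 29 in Flt1, against a median of 7 over all promoters, 6 in Acta2, 2 in Emcn and 1 in Slco1a4. A match describes letters in the window and is no measured binding site.

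Most of these genes differed between times of day in mice that had slept freely. Sleep and wake follow the time of day in such mice, so their parts cannot be told apart in the controls. The limma F-test over the 5 control groups called 9 of 10 members, all but Abcc9, where it called 40.7% of all genes. Cldn5, Kdr, Flt1, Apln, Emcn and Pecam1 were lower at ZT12, the end of the rest phase, than at ZT0, whereas Slc2a1 and Slco1a4 were higher. At ZT12 minus ZT0, 8 of 10 members passed the test, 6 of them lower and 2 higher, against 26.0% of all genes (14.4% lower and 11.6% higher).

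Cldn5 (chr16:18776847-18778262), the main claudin of brain endothelial tight junctions, had the widest range. Its log2 level in the 8 ZT0 controls ran from 5.35 to 5.60 with a median of 5.46, and in the 5 ZT12 controls it was 4.40, 4.70, 4.24, 4.49 and 4.42. Every ZT12 animal lay below every animal of the other 4 control groups. The change at ZT12 minus ZT0 was -1.02 ± 0.09 (SE) on the log2 scale, a level 0.493 times that at ZT0 (adjusted p = 1.26e-12). It was present in both batches, with means of 5.51 and 4.45 in batch 1 and 5.43 and 4.45 in batch 2. In order, the control means were 5.47 ± 0.08 (SD, n = 8) at ZT0, 5.42 ± 0.10 (n = 3) at ZT3, 5.36 ± 0.17 (n = 5) at ZT18, 5.17 ± 0.11 (n = 5) at ZT6 and 4.45 ± 0.17 (n = 5) at ZT12. The first 3 did not differ beyond their spread, ZT18 was 0.19 ± 0.10 (SE) above ZT6 without passing the test (adjusted p = 0.134, and 0.0476 without T18N4), and the step from ZT6 to ZT12, where 3.87% of all genes changed, passed it (-0.72, adjusted p = 1.72e-06). Already at ZT6, Cldn5 was below ZT0 (-0.30, adjusted p = 0.0114), a step at which 22.7% of all genes passed. By ZT18, 6 h into the dark, Cldn5 was back 0.91 ± 0.10 (SE) above ZT12 (adjusted p = 1.61e-09), a step at which 26.8% of all genes passed.

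Pecam1 (chr11:106654213-106715281), an adhesion molecule of endothelial cell contacts, and Emcn (chr3:137341062-137431069), a sialomucin of the endothelial surface, varied less. For Pecam1 the ZT0 controls ran from 4.04 to 4.18 with a median of 4.08, and the ZT12 controls were 3.94, 4.25, 3.71, 3.84 and 3.81, so the groups overlapped. The change of -0.18 ± 0.07 (SE) passed the test narrowly (adjusted p = 0.0413), and it did not pass within batch 1 (-0.15, adjusted p = 0.303), with median centring (adjusted p = 0.0509) or with quantile normalization (adjusted p = 0.0699). It was also lost without any 1 of T0N2, T0N3, T0N5, J70N1, T12N1, T12N4, T12N5 or T12N6, with adjusted p from 0.0517 to 0.187. For Emcn the means were 3.23 ± 0.07 (SD, n = 8) at ZT0 and 3.24 ± 0.04 (n = 3) at ZT3, then 3.11 ± 0.07 (n = 5) at ZT18, 3.05 ± 0.07 (n = 5) at ZT6 and 3.03 ± 0.10 (n = 5) at ZT12. Emcn was 0.20 ± 0.05 (SE) lower at ZT12 than at ZT0 (log2 change -0.20, adjusted p = 0.00263), and the 3 lowest groups did not differ beyond their spread. Within batch 1 the Emcn change was -0.16 with an adjusted p of 0.110. Emcn was also lower at ZT6 than at ZT0 (-0.18, adjusted p = 0.00792), where 22.7% of all genes passed.

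Slc2a1 (chr4:119108745-119137330) encodes GLUT1, the glucose transporter of the barrier endothelium, which astrocytes also make. It ran opposite to Cldn5. The ZT0 controls ran from 5.61 to 5.85 with a median of 5.67, and the ZT12 controls were 6.28, 6.32, 6.20, 6.30 and 6.64, all above every other control. The change was 0.66 ± 0.06 (SE), or 1.58-fold (adjusted p = 1.21e-12), and it was 0.56 within batch 1 (adjusted p = 4.26e-06). In order, the means were 6.35 ± 0.17 (SD, n = 5) at ZT12, 5.91 ± 0.08 (n = 5) at ZT18, 5.76 ± 0.08 (n = 5) at ZT6, 5.69 ± 0.07 (n = 8) at ZT0 and 5.65 ± 0.07 (n = 3) at ZT3. ZT12 exceeded ZT18 beyond the error (ZT18 minus ZT12 -0.44, adjusted p = 5.76e-07), ZT18 exceeded ZT0 (0.22, adjusted p = 0.0119, but 0.0578 without T18N3 and 0.105 within batch 1, where 6.89% of all genes passed over both batches), and ZT6, ZT0 and ZT3 did not differ beyond their spread. Between ZT18 and ZT6 the Slc2a1 difference was 0.15 ± 0.06 (SE, adjusted p = 0.0726), and it passed without T6N3, T12N6 or T18N8 (adjusted p from 0.0357 to 0.0433).

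Slco1a4 (chr6:141805438-141856284), an organic anion transporter of brain endothelium, was also highest at ZT12. Its ZT0 controls ran from 5.41 to 5.63 with a median of 5.56, and its ZT12 controls were 5.85, 5.96, 5.77, 5.84 and 5.64. The change of 0.27 ± 0.07 (SE) passed the test (adjusted p = 0.00154), and the lowest ZT12 animal lay just above the highest ZT0 animal. The means were 5.81 ± 0.12 (SD, n = 5) at ZT12 and 5.75 ± 0.17 (n = 5) at ZT6, which did not differ beyond their spread, and 5.55 ± 0.09 (n = 3) at ZT3, 5.54 ± 0.14 (n = 5) at ZT18 and 5.54 ± 0.09 (n = 8) at ZT0.

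Both VEGF receptors were lowest at ZT12. Kdr (chr5:75932827-75979072), the main signalling receptor, ran from 2.79 to 3.18 with a median of 3.09 in the ZT0 controls and was 2.41, 2.47, 2.24, 2.48 and 2.12 in the ZT12 controls. These groups did not overlap, and the change was -0.71 ± 0.08 (SE), a level 0.611 times that at ZT0 (adjusted p = 7.55e-09). In order, Kdr means were 3.05 ± 0.13 (SD, n = 8) at ZT0, 3.01 ± 0.16 (n = 3) at ZT3, 2.85 ± 0.10 (n = 5) at ZT18, 2.80 ± 0.16 (n = 5) at ZT6 and 2.34 ± 0.16 (n = 5) at ZT12. Of the Kdr neighbours that were compared, ZT0 and ZT3 did not differ beyond their spread, nor did ZT18 and ZT6. ZT6 was already below ZT0 (-0.25, adjusted p = 0.0253, but 0.345 within batch 1). ZT12 was below ZT6 (-0.46, adjusted p = 0.00128, and 0.0591 within batch 1). Flt1 (chr5:147561604-147726438) ran from 4.94 to 5.10 with a median of 4.98 at ZT0 and was 4.78, 4.85, 4.69, 4.86 and 4.62 at ZT12, again without overlap. Its change of -0.23 ± 0.04 (SE) was smaller than that of Kdr (adjusted p = 3.95e-05), and its means were 5.05 ± 0.06 (SD, n = 5) at ZT18, 4.99 ± 0.06 (n = 8) at ZT0, 4.97 ± 0.10 (n = 3) at ZT3, 4.87 ± 0.08 (n = 5) at ZT6 and 4.76 ± 0.11 (n = 5) at ZT12. Of the Flt1 neighbours that were compared, ZT18 and ZT0 did not differ beyond their spread, nor did ZT6 and ZT12 (adjusted p = 0.505 and 0.197). Flt1 was lower at ZT6 than at ZT0 (-0.12, adjusted p = 0.0335, but 0.179 within batch 1). Between ZT6 and ZT0, 22.7% of all genes passed. Vegfa, the ligand of both receptors, was lower at ZT12 too (-0.41 ± 0.05 SE, adjusted p = 8.98e-08).

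Apln (chrX:48025146-48034853) encodes apelin, a peptide of sprouting endothelial tip cells, and it ran at a high and a low level. The ZT0 controls ran from 4.34 to 4.79 with a median of 4.49, the ZT6 controls were 4.06, 3.85, 4.23, 4.13 and 4.23, and the ZT12 controls 4.09, 4.18, 4.09, 4.13 and 3.94. ZT6 and ZT12 lay below ZT0 without overlap, by -0.42 ± 0.08 (SE, adjusted p = 5.13e-05) and -0.43 ± 0.08 (SE, adjusted p = 1.92e-05) on the log2 scale. The high means were 4.61 ± 0.06 (SD, n = 5) at ZT18, 4.52 ± 0.16 (n = 8) at ZT0 and 4.47 ± 0.08 (n = 3) at ZT3, the low means 4.10 ± 0.16 (n = 5) at ZT6 and 4.09 ± 0.09 (n = 5) at ZT12. Within each of these sets neighbours did not differ beyond their spread, and ZT18 exceeded ZT6 by 0.51 ± 0.08 (SE, adjusted p = 5.37e-06). Of all genes, 22.7% passed between ZT6 and ZT0 and 29.7% between ZT18 and ZT6.

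The mural genes had the highest adjusted p of the 10 members for time of day. Acta2 (chr19:34240336-34255585), smooth muscle actin, had means of 4.46 ± 0.11 (SD, n = 5) at ZT6, 4.43 ± 0.11 (n = 3) at ZT3, 4.32 ± 0.10 (n = 5) at ZT18, 4.23 ± 0.21 (n = 8) at ZT0 and 4.05 ± 0.13 (n = 5) at ZT12. The F-test called it narrowly (adjusted p = 0.0478), a call lost in 19 of 34 alternatives, mostly those that leave out 1 library. No pair of times that was compared passed; ZT12 minus ZT6 was -0.41 ± 0.13 (SE, adjusted p = 0.0530). Abcc9 (chr6:142587862-142702766), the SUR2 subunit of the potassium channel of pericytes, ranged from 2.14 ± 0.08 (n = 8) at ZT0 to 2.31 ± 0.15 (n = 3) at ZT3 and was not called (adjusted p = 0.146). Kcnj8, the pore partner of SUR2, was not called at ZT12 minus ZT0 either (-0.03 ± 0.08 SE, adjusted p = 0.807).

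**Figure D1:**
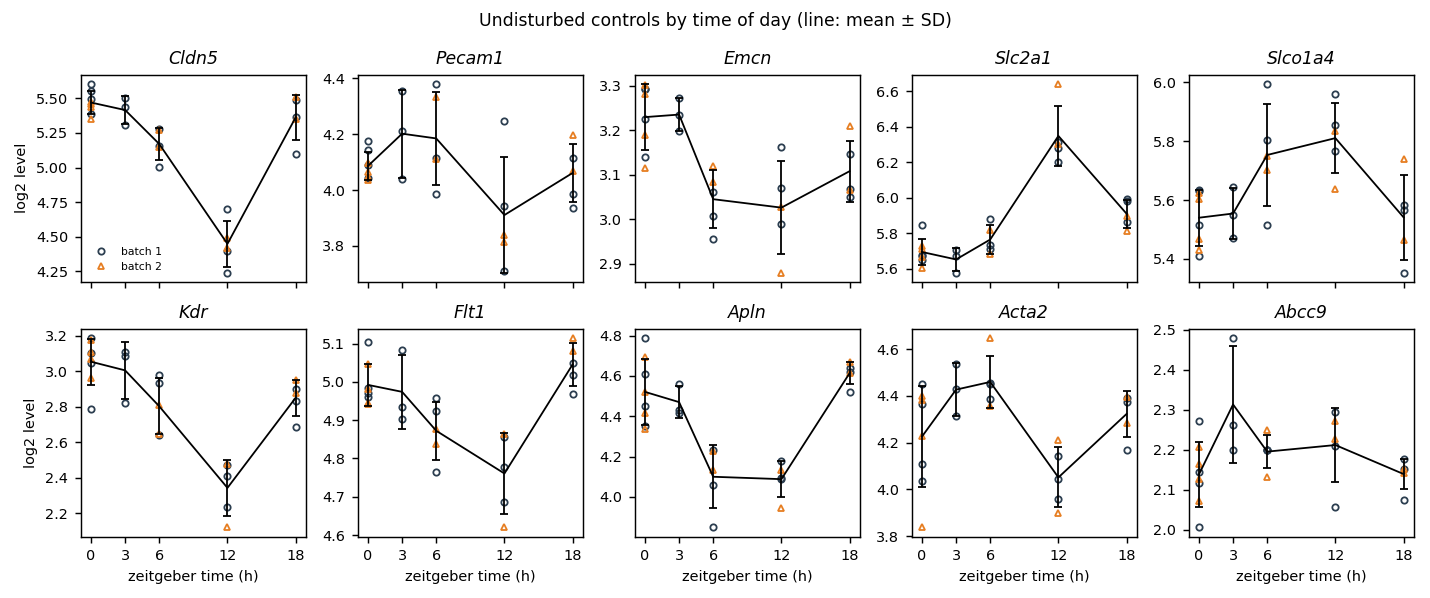
Log2 RNA level (y axis) of each gene in undisturbed controls against zeitgeber time in hours (x axis), with 1 point per animal, circles for batch 1, triangles for batch 2, and a line for the mean ± SD. Cldn5 and Kdr dip at ZT12, where Slc2a1 peaks with a mean of 6.35, and Apln sits low at both ZT6 and ZT12.

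Sleep deprivation changed a few members, in opposite directions for the 2 transporters. Deprived mice were set against the controls killed at the same ZT. At T27, 2 of 10 members passed the test (1 higher, 1 lower) against 15.6% of all genes (8.21% higher, 7.37% lower). At T30, 4 of 10 passed (3 higher, 1 lower) against 31.6% (16.0% higher, 15.6% lower). At T36, 2 of 10 passed, both higher, against 11.9% (7.46% higher, 4.46% lower), so the members' share lay near the background at each time. The members' median log2 change was -0.02 at T27, 0.12 at T30 and 0.17 at T36, against -0.01, 0.00 and 0.00 over all genes. Over all 12 times together the F-test called 4 of 10 members, Emcn, Slc2a1, Slco1a4 and Apln, against 36.9% of all genes. The T30 comparison shares its ZT6 controls with T54, T78 and T198, and T36 shares its ZT12 controls with T60. The changes of Slc2a1 and Slco1a4 at T30 were known from earlier results of these data.

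Slc2a1 rose during deprivation. Its log2 level was 5.67, 5.58 and 5.71 in the ZT3 controls and 6.01, 6.19 and 6.03 at T27, and it was 5.73, 5.88, 5.71, 5.82 and 5.68 in the ZT6 controls and 6.16, 5.94 and 6.15 at T30. At both times every deprived animal exceeded every control. The changes were 0.43 ± 0.08 (SE), or 1.34-fold, at T27 (adjusted p = 0.000175) and 0.32 ± 0.07 (SE), or 1.25-fold, at T30 (adjusted p = 0.000652). At T36 the deprived mice had 6.26, 6.19 and 6.36 against the ZT12 controls given above, with overlap and a change of -0.08 ± 0.07 (SE, adjusted p = 0.562). The effect at T36 was lower than that at T30 by a direct test (-0.40 ± 0.10 SE, adjusted p = 0.00632, where 11.4% of all genes passed), and within batch 1 that difference was -0.31 with an adjusted p of 0.106. In level, the mean of 6.08 ± 0.10 (SD, n = 3) at T27 and 6.09 ± 0.12 (n = 3) at T30 lay between the ZT6 and ZT12 controls.

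Slco1a4 fell at the same times. The ZT3 controls had 5.47, 5.55 and 5.65 and the T27 mice 5.17, 5.24 and 5.08. The ZT6 controls had 5.99, 5.51, 5.80, 5.70 and 5.75 and the T30 mice 5.39, 5.37 and 5.30, again with no overlap at either time. The changes were -0.39 ± 0.09 (SE), or 0.763-fold, at T27 (adjusted p = 0.00258) and -0.41 ± 0.09 (SE), or 0.754-fold, at T30 (adjusted p = 0.000228). At T36 the values of 5.57, 5.90 and 5.72 overlapped those of the ZT12 controls (-0.09 ± 0.09 SE, adjusted p = 0.552), while the difference between the T36 and T30 effects did not pass the test (0.32 ± 0.12 SE, adjusted p = 0.0704).

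At T27 all 3 choroid plexus genes measured, of 8 listed, were lower, led by Ttr (-3.22 ± 0.78 SE). Of 10 fibroblast genes 2 were lower (Slc13a4 -0.54, Slc6a13 -0.49), against 7.37% of all genes. The log2 choroid plexus sum was also lower at T30 (7.20 to 7.21 against 7.30 to 7.46 at ZT6) and at T36 (7.24 to 7.26 against 7.36 to 7.42 at ZT12). Of its genes, Enpp2 alone was called at T30 by limma (-0.18, adjusted p = 0.00508), and none at T36. Among the 3 ZT3 libraries, T3N2 had the highest choroid plexus sum, at 8.56 against 7.55 and 7.36. Without T3N2 the T27 changes were 0.44 for Slc2a1 (adjusted p = 0.000963) and -0.43 for Slco1a4 (adjusted p = 0.00422), as large as with it. The other ZT3 libraries still lay above every T27 library (7.10 to 7.23) in that sum. Leaving out T3N2 thus did not remove the choroid plexus difference, and its part in the changes of Slc2a1 and Slco1a4 was not tested.

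Apln rose at T30. The ZT6 controls are given above, and the T30 mice had 4.62, 4.50 and 4.48, all above them. The change was 0.43 ± 0.10 (SE), or 1.35-fold (adjusted p = 0.000604). At T27 the level of 4.71, 4.51 and 4.43 overlapped that of the ZT3 controls at 4.42, 4.43 and 4.56 (0.08 ± 0.11 SE, adjusted p = 0.679), and at T36 the values of 4.14, 4.11 and 4.08 overlapped those of the ZT12 controls (0.02 ± 0.10 SE, adjusted p = 0.917). The T36 effect was lower than the T30 effect (-0.41 ± 0.14 SE, adjusted p = 0.0396). The T30 mean of 4.53 ± 0.08 (SD, n = 3) was thus at the level of the ZT0 and ZT3 controls, and the deprived mice reached the low level at T36.

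Emcn was the member with the clearest change after deprivation had ended. The ZT12 controls had 3.07, 3.16, 2.99, 2.88 and 3.03, and the T36 mice 3.48, 3.46 and 3.48, with no overlap. The change was 0.45 ± 0.07 (SE), or 1.37-fold (adjusted p = 5.49e-06). At T27 it was 0.02 ± 0.07 (SE, adjusted p = 0.915), with values of 3.12, 3.36 and 3.27 against 3.27, 3.20 and 3.23 in the ZT3 controls. At T30 the mice had 3.28, 3.22 and 3.16 against 3.06, 3.01, 2.95, 3.12 and 3.08, and the change of 0.18 ± 0.07 (SE) passed narrowly (adjusted p = 0.0425). That call was lost when 1 of the libraries T6N2, T6N3, T6N4, T30S1 or T30S3 was left out (adjusted p from 0.0582 to 0.159) and with median centring (0.16, adjusted p = 0.0667). The T36 effect exceeded the T30 effect (0.27 ± 0.09 SE, adjusted p = 0.0486) and the T42 effect (T42 minus T36 -0.36 ± 0.09 SE, adjusted p = 0.0195, where 3.3% of all genes passed), and neither difference passed within batch 1 (0.19, adjusted p = 0.353, and -0.29, adjusted p = 0.156).

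Acta2 was also higher at T36. The T36 mice had 4.47, 4.76 and 4.28 against 3.96, 4.14, 4.05, 3.90 and 4.21 in the ZT12 controls, without overlap but with a wide spread. The change of 0.46 ± 0.15 (SE), or 1.37-fold, passed the test (adjusted p = 0.0361). It no longer passed when T36S1, T36S2, T12N1, T12N4 or T12N5 was left out, with adjusted p between 0.0595 and 0.223 and a change of 0.33 without T36S2, nor within batch 1 (0.45, adjusted p = 0.0713). Abcc9, the other mural member, had 2.35, 2.49 and 2.29 at T36 against 2.21, 2.29, 2.06, 2.27 and 2.23, with a change of 0.17 ± 0.07 (SE) that did not pass (adjusted p = 0.120).

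The other endothelial members did not pass at T27, T30 or T36. Cldn5 had 5.23, 5.13 and 5.24 at T27, below the 5.51, 5.30 and 5.44 of the ZT3 controls (-0.21 ± 0.13 SE, adjusted p = 0.268), and 4.71, 4.80 and 4.73 at T36, above all 5 ZT12 controls (0.30 ± 0.12 SE, adjusted p = 0.0801). Kdr was 0.21 ± 0.11 (SE, adjusted p = 0.136) at T30 and 0.24 ± 0.11 (SE, adjusted p = 0.156) at T36 on the scale of log2 change. Flt1 was 0.12 ± 0.06 (SE, adjusted p = 0.106) at T30. Pecam1 was -0.07 ± 0.09 (SE) at T30 and 0.16 ± 0.09 (SE) at T36 (adjusted p = 0.593 and 0.226). The ZT12 library T12N2 had the highest Cldn5 and Pecam1 values of its group, and without it both genes passed at T36 (0.38, adjusted p = 0.0334, and 0.26, adjusted p = 0.0298), which brought the count at that time to 4 of 10.

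**Figure D2:**
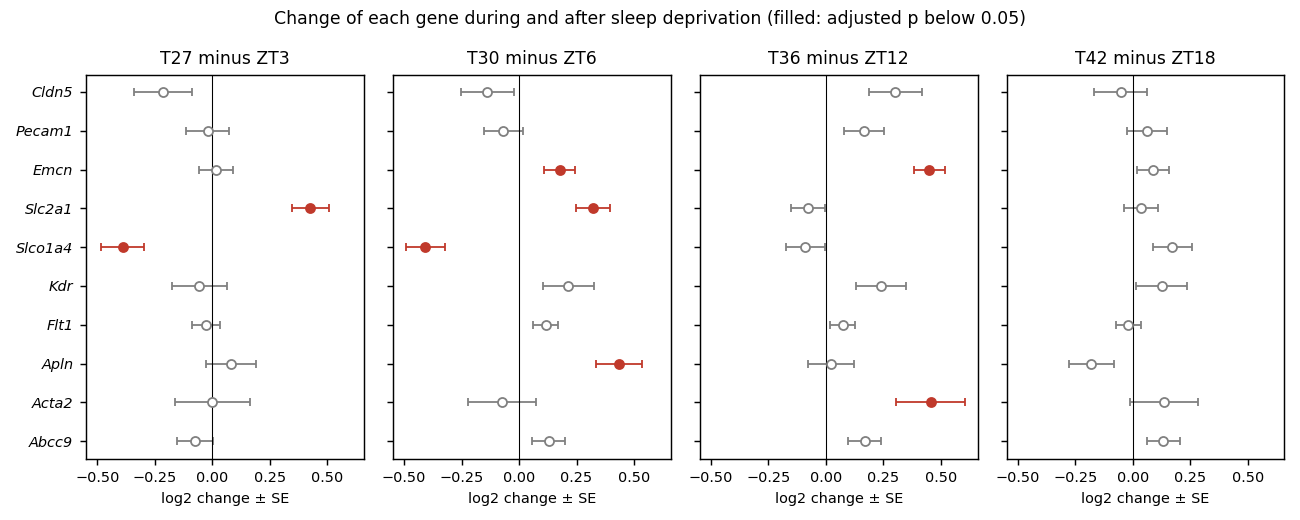
Log2 change of each gene in sleep-deprived mice minus controls killed at the same ZT (x axis, ± SE) at T27, T30, T36 and T42, with filled points for an adjusted p below 0.05. Slc2a1 and Slco1a4 lie on opposite sides of 0 at T27 and T30, Apln is filled at T30 alone, and Emcn and Acta2 are filled at T36.

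From T42 to T198 no member passed the limma test in any of the 9 comparisons, where 1.05% of all genes did at T42, 1.27% at T48, 0.0795% at T66, 0.00722% each at T54, T60, T72 and T198, and none at T78 or T192. Unadjusted, 0 to 2 members per time had p below 0.05. The lowest adjusted p was that of Apln at T48, with values of 4.06, 4.46 and 4.08 against ZT0 controls of 4.34 to 4.79 (-0.32 ± 0.09 SE, adjusted p = 0.0674). It passed without T0N3 or T48S3 (adjusted p = 0.0493 and 0.0203) and with no batch term (0.0367). Apln went the other way at T54, T60 and T198, where it lay above all controls without passing (0.29, 0.30 and 0.29, adjusted p = 0.297, 0.340 and 0.312). At the other later times it overlapped its controls. T54 and T198 share with T30 the ZT6 controls against which Apln was called higher. Emcn was above all 5 ZT6 controls in each of the 3 later ZT6 groups, which share those controls. Its values were 3.43, 3.31 and 3.19 at T54, 3.30, 3.20 and 3.31 at T78, and 3.36, 3.23 and 3.28 at T198. The changes of 0.26, 0.22 and 0.24 did not pass (adjusted p = 0.214, 0.817 and 0.186), although the T54 change passed without T54S4 (0.32, adjusted p = 0.0176).

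**Figure D3:**
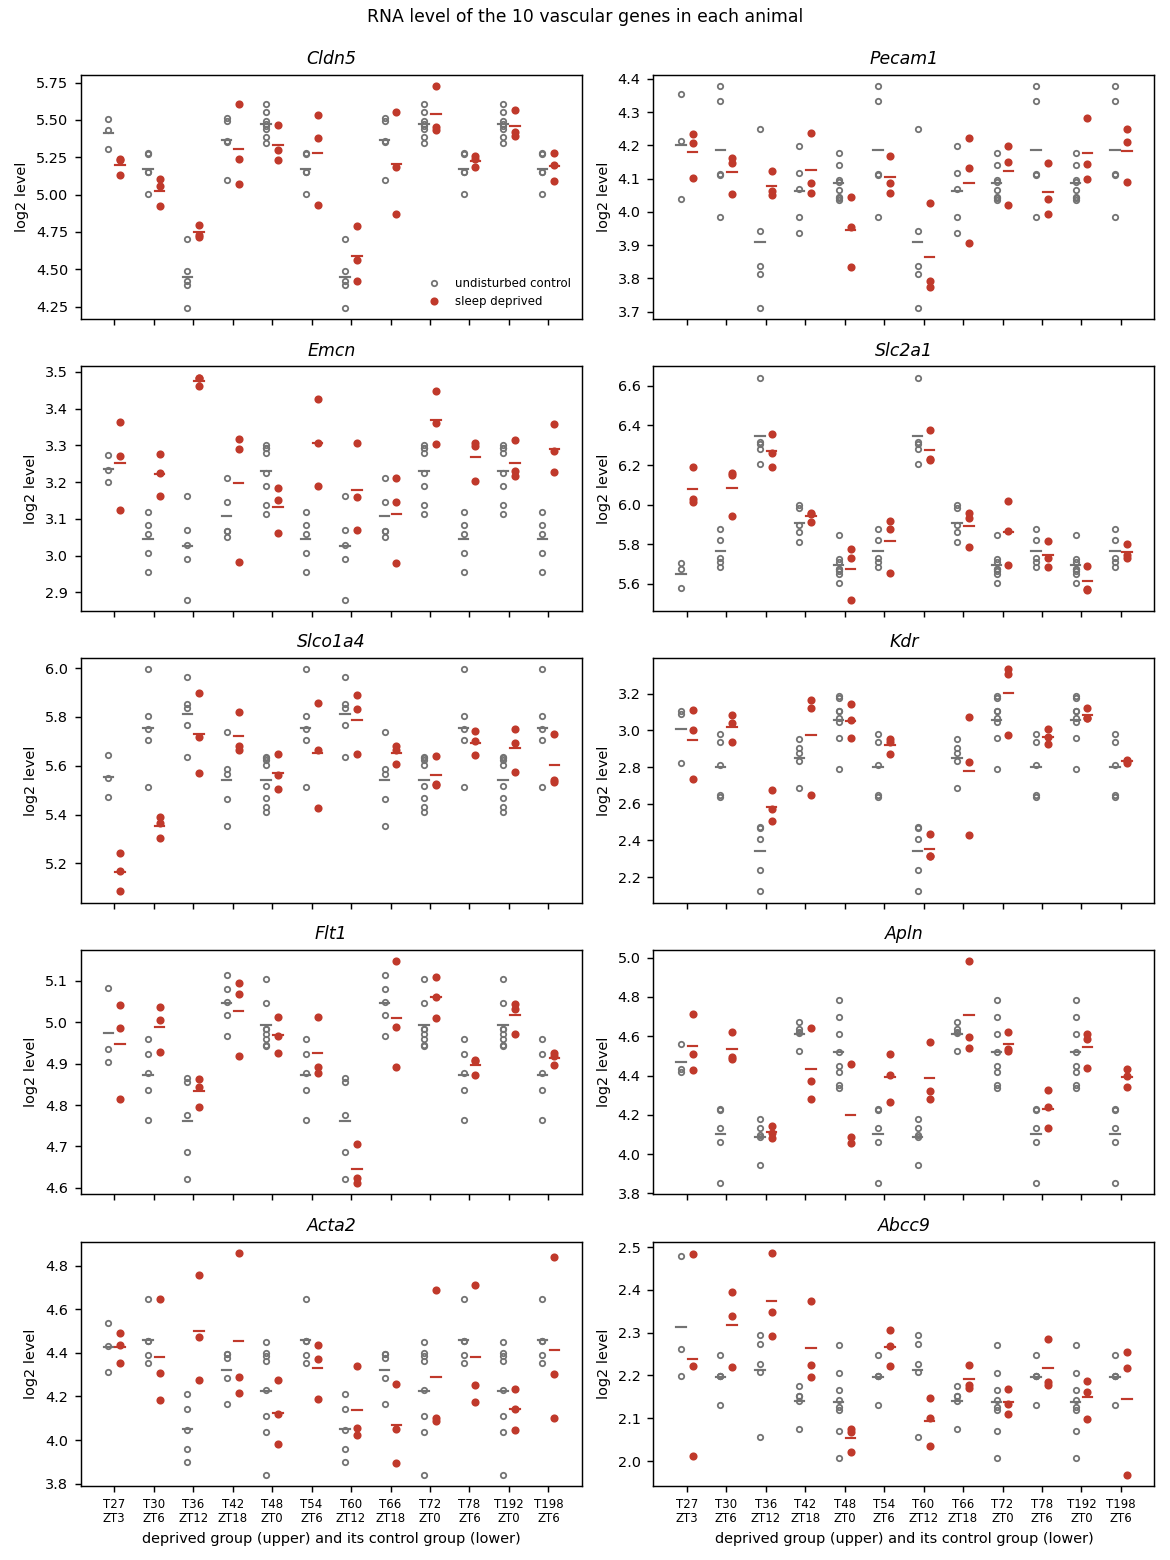
Log2 RNA level (y axis) of each gene in every animal, with open grey circles for controls, filled red circles for deprived mice and short lines for means, for the 12 deprived groups and their control group (x axis; a control group appears again wherever it serves). Deprived and control animals separate for Slc2a1 and Slco1a4 at T27 and T30 and for Emcn at T36, where its values were 3.46 to 3.48.

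The wider gene lists, chosen with earlier results of these data known, showed a mixed picture around the members. Of 26 other endothelial genes, 2 rose and 3 fell at T27, 6 rose and 4 fell at T30, and 4 rose and 1 fell at T36. Over all genes, 8.21% rose and 7.37% fell at T27, 16.0% and 15.6% at T30, and 7.46% and 4.46% at T36. Nostrin, which controls endothelial nitric oxide synthase trafficking, rose by 0.75 ± 0.13 (SE) at T27 (adjusted p = 3.73e-05) and 0.52 at T30, and Palmd rose by 0.44 at T27 and 0.66 at T30. Cd34, a sialomucin like Emcn, fell at both times (-0.28 and -0.44). At T36, Ly6a (0.38), the sialomucin Podxl (0.34) and the angiopoietin receptor gene Tek (0.29) rose, and Itm2a was lower (-0.25). The list's median change was 0.03, 0.02 and 0.05 at the 3 times, against -0.01, 0.00 and 0.00 over all genes.

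Of 25 other barrier genes, 4 rose and 4 fell at T27, 5 rose and 5 fell at T30, and 6 rose and 0 fell at T36. The shares of all genes called were 15.6%, 31.6% and 11.9%. The transferrin receptor gene Tfrc, which takes up iron and is also made by neurons, moved with Slco1a4 (-0.36 at T27 and -0.66 ± 0.07 SE at T30, adjusted p = 2.90e-09), as did the organic anion transporter gene Slc22a8 (-0.40 and -0.32). Mfsd2a, which carries docosahexaenoic acid and limits transcytosis, rose at all 3 times (0.34, 0.54 and 0.41), as did Lrp8 (0.36, 0.43 and 0.26). At T36 the zinc transporter gene Slc39a10 (0.27) and the thyroid hormone transporter gene Slco1c1 (0.26) rose as well.

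Of 20 other mural genes, 0 rose and 2 fell at T27 and at T30, and 3 rose and 0 fell at T36. Among all genes 15.6%, 31.6% and 11.9% were called at these times, so the mural share was below the background at T30. Pdgfrb, the pericyte receptor for PDGF-B, was lower at T27 (-0.34 ± 0.08 SE, adjusted p = 0.00155) and T30 (-0.26), with Atp13a5 (-0.36 and -0.28). At T36 the genes that rose were Higd1b (0.52 ± 0.14 SE, adjusted p = 0.0120) and the contractile genes Tagln (0.37 ± 0.11 SE, adjusted p = 0.0168) and Tpm1 (0.19). The list's median was -0.16, -0.05 and 0.16. Kcnj8 did not pass at any of these times (0.11, 0.08 and 0.14).

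Of 21 other genes of VEGF, apelin and angiopoietin signalling, 5 rose and 1 fell at T27, 7 rose and 1 fell at T30, and 3 rose and 0 fell at T36. The background of all genes called was 15.6%, 31.6% and 11.9%. The shear-responsive factor genes Klf2 (1.29 ± 0.17 SE, adjusted p = 4.73e-07) and Klf4 (1.26 ± 0.18 SE, adjusted p = 2.11e-06) led at T27 and remained higher at T30 (1.03 and 0.98), and both are also made outside vessels. Pdgfb, the ligand of PDGFRB, rose by 0.64 and 0.41, and the VEGF co-receptor gene Nrp1 by 0.52 and 0.51. Vegfa was not called at T27 (0.10, adjusted p = 0.451) and rose at T30 (0.31 ± 0.07 SE, adjusted p = 0.000612) and T36 (0.26 ± 0.07 SE, adjusted p = 0.0113), with Nrp2 (0.52) at T36. The apelin receptor gene Aplnr was not among the 13842 genes with an RNA level, so it could not be analysed.

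Of 19 hypoxia-responsive genes, a group to which Slc2a1 is usually counted, 6 rose and 0 fell at T27, 7 rose and 2 fell at T30, and 4 rose and 1 fell at T36. Here too, 15.6%, 31.6% and 11.9% of all genes were called. Pfkfb3, an activator of glycolysis, rose by 0.86 ± 0.10 (SE) and 0.83 ± 0.09 (SE) at T27 and T30, and Adm, which encodes adrenomedullin, by 0.42 and 0.38. Car12 rose by 0.92 at T30 and 1.75 ± 0.13 (SE) at T36 (adjusted p = 4.77e-14), while Bnip3 was lower at T36 (-0.26). The list's median was 0.08, 0.11 and 0.03.

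Markers of neighbouring cells were counted in the same way, against 15.6%, 31.6% and 11.9% of all genes called at T27, T30 and T36. Of 13 astrocyte genes 1 rose at each time (Gjb6 at T27 and T30, Gfap at T36), and of 5 blood genes none was called at any of the 3 times. At T30, 4 of 8 macrophage and microglia genes were lower and 1 higher, with a log2 summed level of 7.74 to 7.80 against 7.93 to 7.97 in the ZT6 controls. For the 26 other endothelial genes the summed level was 8.91 to 8.96 at T30 against 8.91 to 8.99 at ZT6, and 8.98 to 9.04 at T36 against 8.88 to 8.99 at ZT12. For the 20 other mural genes it was 8.87 to 8.95 at T36 against 8.72 to 8.80 at ZT12, without overlap. The part of these shifts in the members' changes was not tested.

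No change of promoter accessibility was detected at the 7 members with a promoter peak. In these, an ATAC peak lay within 1000 bp of the start. It covered the start itself in all but Acta2, where it began 390 bp inside the gene. None of the 7 peaks passed the limma test at T27, T30 or T36, where 0.689%, 2.60% and 0.618% of 130727 peaks did, nor at a later time, and 1 had an unadjusted p below 0.05 over these 3 times. For Slc2a1 the normalized signal was 26.9, 28.2 and 31.5 in the ZT3 controls and 20.8, 24.6 and 25.7 at T27, lower in every deprived mouse while its RNA was higher (-0.28 ± 0.16 SE on the log2 scale, adjusted p = 0.519). For Cldn5 it was 4.82, 3.90 and 5.62 in the ZT3 controls and 4.59, 2.29 and 1.40 at T27 (-0.80 ± 0.28 SE, adjusted p = 0.173), and it passed without the T27 library T27S2 (-1.18, adjusted p = 0.0416). The Kdr, Flt1, Apln, Acta2 and Abcc9 peaks overlapped between groups at T30. At T27 the Apln peak had 3.04 to 3.34 against 3.55 to 6.11 at ZT3, without overlap and without passing. The Kdr, Flt1, Acta2 and Abcc9 peaks overlapped at T27 too. Emcn and Slco1a4 had no peak within that distance. Pecam1 had no promoter entry to give its start, so its promoter was not assessed. Mean signal over all animals ran from 3.99 at the Apln peak to 26.0 at the Slc2a1 peak, and changes at the low peaks could be missed.

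Within 10000 bp of the genes lay 59 peaks in all, and 3 of them passed at 1 time each, 1 at T27, 1 at T30 and 1 at T36. Of all 130727 peaks, 0.689%, 2.60% and 0.618% passed at these times, so 1 of 59 lay near the background. A peak at chr5:75927667-75928164, beyond the 3′ end of Kdr, had 2.03, 1.80 and 2.93 in the ZT3 controls and 5.65, 3.13 and 8.88 at T27 (1.13 ± 0.29 SE, adjusted p = 0.0372). A peak inside Flt1, at chr5:147707420-147707871, had 6.89, 6.89, 7.61, 9.98 and 7.13 at ZT6 and 11.9, 11.5 and 17.7 at T30 (0.77 ± 0.22 SE, adjusted p = 0.0361). The Flt1 peak did not pass at T36, where it had 8.90 to 12.0 against 4.70 to 8.61 at ZT12, without overlap. At T27 it had 9.53 to 17.3 against 6.60 to 11.1 at ZT3, with overlap and no call. A peak inside Acta2, at chr19:34252412-34252900, was lower at T36, with 2.23, 2.00 and 1.72 against 4.42, 2.69, 4.98, 5.25 and 4.40 (-0.95 ± 0.25 SE, adjusted p = 0.0453), at a time when Acta2 RNA was higher. The F-test over all 12 times, which includes the 1 library of T66, called the Flt1 peak (adjusted p = 0.00655). It did not call the Kdr peak (adjusted p = 0.151) or the Acta2 peak (adjusted p = 0.0555). In none of these 3 did the groups overlap at the time of the call. The Kdr call was lost in 7 of 12 alternatives, the Flt1 call in 8 of 14 and the Acta2 call in 10 of 14. The Kdr call was lost without T3N2, T3N3, T3N4, T27S2 or T27S5, the Flt1 call without J76N1, J76N2, T6N2, T6N4, T30S1 or T30S4, and the Acta2 call without any 1 of T12N1, T12N4, T12N5, T12N6, T36S1, T36S2 or T36S4, with adjusted p up to 0.449, 0.297 and 0.145 over all alternatives.

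**Figure D4:**
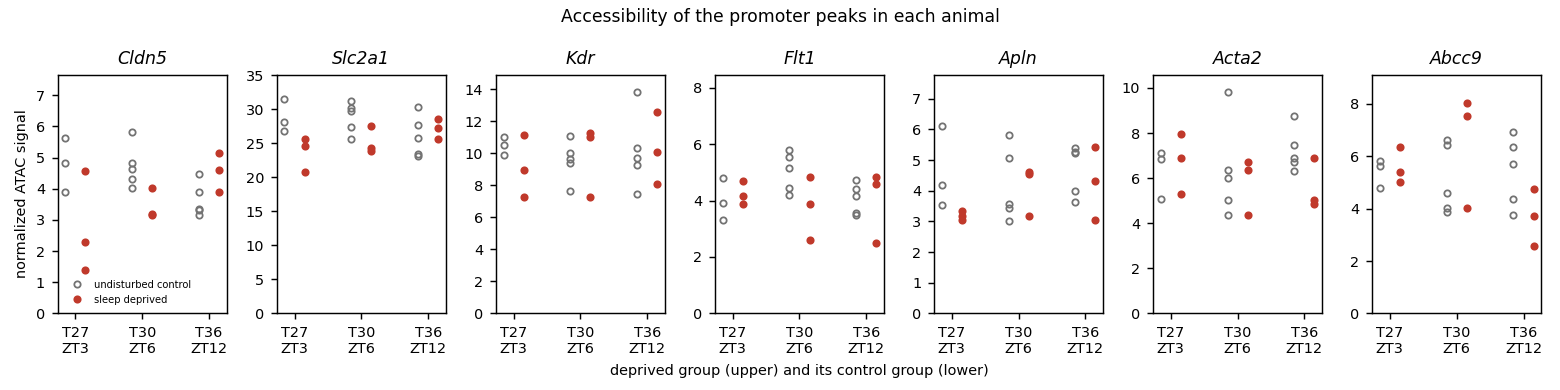
Normalized ATAC signal (y axis, from 0) of the promoter peaks of 7 members in every animal of T27, T30 and T36 (filled red) and of their controls (open grey). At T27 the Slc2a1 peak reaches 20.8 to 25.7 and the Apln peak 3.04 to 3.34, each below its 3 ZT3 controls. At T30 the groups overlap for all 7 peaks.

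Some pairs of members varied together between animals of the same group to a modest degree. Pairs of other genes were not examined, so whether members exceed them was not tested. After group and batch means were removed, the 45 pairs of members had a median Pearson r of 0.21 over 62 animals, from -0.38 to 0.67, and 11 pairs passed a permutation test within groups after adjustment over the 45 pairs, 10 of them positive. Kdr and Flt1 were closest (r = 0.67, Spearman rho = 0.66, permutation test, adjusted p = 0.0011 and 0.00045), and r was 0.62 without the 2 animals farthest from the median, 0.58 in batch 1 and 0.84 in batch 2. Cldn5 with Kdr had r = 0.54 and rho = 0.47 (permutation test, adjusted p = 0.0101 and 0.0134), r = 0.51 without the 2 farthest animals, and 0.54 in both batches. Cldn5 with Acta2 had r = 0.51 and rho = 0.50 (adjusted p = 0.0011 and 0.0045, permutation test), and 0.50 without the 2 farthest animals, 0.57 in batch 1 and 0.42 in batch 2.

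Pecam1 with Flt1 had r = 0.54 and rho = 0.53 (permutation test, adjusted p = 0.00882 and 0.0045), 0.50 without the 2 farthest animals, but 0.68 in batch 1 and 0.25 in batch 2. Flt1 with Abcc9 had r = 0.50 and rho = 0.45 (permutation test, adjusted p = 0.00882 and 0.0134), 0.55 without the 2 farthest animals, with 0.69 in batch 1 and 0.04 in batch 2, so this relation rests on batch 1. The 1 negative pair that passed was Slc2a1 with Slco1a4 (r = -0.38, adjusted p = 0.0418), and its rho of -0.31 did not pass (permutation test, adjusted p = 0.0919). That pair had r = -0.37 without the 2 farthest animals, -0.34 in batch 1 and -0.44 in batch 2. Animals share dissection and library steps, and their part in these relations was not tested.

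**Figure D5:**
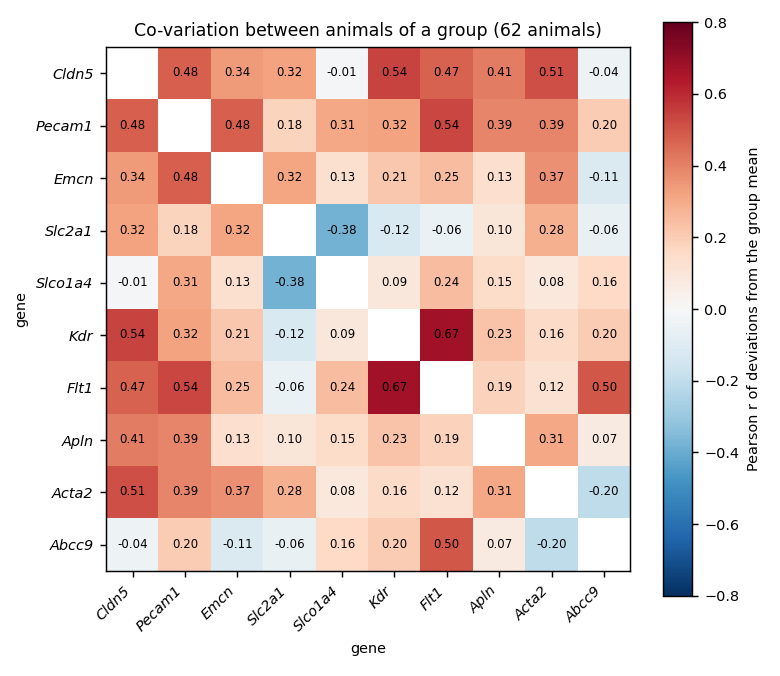
Pearson r between members (both axes) of each animal's deviation from the mean of its group and batch, over 62 animals, in colour and figures. Kdr with Flt1 is the strongest pair at 0.67, and Slc2a1 with Slco1a4 is the most negative at -0.38.

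The genes most like each member in level over all 62 mice, groups included, are given as a description. All points share time of day and deprivation. Among the members themselves, the closest were Cldn5 with Kdr (r = 0.86), Kdr with Flt1 (0.81) and Cldn5 with Flt1 (0.78), while Cldn5 with Slc2a1 had r = -0.71. Of genes outside the 10, Kdr followed Cd93 (r = 0.84) and Vegfa (0.79), and Flt1 followed Cxcl12 (0.82) and Vegfa (0.80). Acta2 followed Tagln (0.78), Vtn (0.77) and Myh11 (0.76), and Pecam1 followed Cdh5 (0.65), Tnfrsf19 (0.65) and Vtn (0.62). Slc2a1 followed Tsc22d3 (0.88), Nfkbia (0.87) and Sgms1 (0.86), and Slco1a4 followed Gpcpd1 (0.78), Guf1 (0.77) and Tfrc (0.76). Cldn5 followed Sox2 (0.81), Tnfrsf19 (0.80) and Bsg (0.79). Emcn followed Ckap4 (0.61), Tie1 (0.58) and Slc7a4 (0.57), Apln followed Wwc1 (0.72), and Abcc9 had no gene above 0.52 (Clec18a).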

How the data were processed

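RNA-seq of 62 mice was deposited as log2 levels per gene. The RNA values of the ZT0 mouse T0N5 merge its library of batch 1 with a repeat library of batch 2. They were fitted as batch 1. The submitters' processing notes name kallisto 0.43.0, sleuth 0.29.0, FastQC, Bowtie2, SAMtools, bedtools 2.26.0, MACS2 2.1.1, HTSeq 0.6.1 and the builds GRCm38 and mm10, without giving their roles. From the deposited values, an offset of 0.5 was seen in the log2 scale, and batch 2 held 23 values below -1 (lowest -3.85) where batch 1 held none. ATAC-seq was deposited by the authors as normalized signal in 130727 peaks, used as log2(signal + 0.5) for 59 mice after a repeat library of a ZT0 mouse was left out; T66 had 1 ATAC library. No count test was run on either table.

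limma 3.58.1 in R 4.3.3 fitted group and batch over all libraries (44 and 41 residual degrees of freedom) with an intensity trend. The T60, T66, T192 and T198 mice were all of batch 2. The other deprived mice and the ZT3 controls were all of batch 1. The other control groups held both batches, so the batch term rests on them. All p-values are two-sided and Benjamini-Hochberg adjusted over all genes, peaks or pairs, with a threshold of 0.05. The scripts were tested on simulated data. Co-variation used 100000 permutations of animals within groups. The named genes are all 10 members, plus the called genes of each list with the largest changes and their partners. The members and lists were chosen with earlier results of these data known. Animal numbers do not pair mice across groups. Alternatives were scaling, offset, filter, batch, trend, groups fitted and each library left out.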

Additional observations from a re-analysis of the deposited data

Results flagged for a closer look

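RNA levels of members were tested in 40 sets, each holding 1 gene in 1 control group. The ZT3 controls, with 3 animals, were too few to test. In these 40 sets 1 animal stood apart from its group. It was the ZT12 animal T12N6 for Slc2a1, at 6.64 against a group median of 6.30. In the ATAC signal of the promoter peaks and the called locus peaks, 4 animals stood apart in 40 such sets. The Cldn5 promoter had 6.88 in the ZT0 animal T0N3 (median 4.15), and the Slc2a1 promoter had 14.5 in the ZT0 animal T0N9 (median 23.6). The Kdr promoter had 10.5 in the ZT18 animal T18N4 (median 12.4), and the peak inside Flt1 had 9.98 in the ZT6 animal T6N3 (median 7.13). Chance alone marks about 1 in 20 sets in this way.

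The effect of deprivation differed between neighbouring times for 3 members by a direct limma test of the difference. From T30 to T36 it grew for Emcn (0.27, adjusted p = 0.0486) and shrank for Slc2a1 (-0.40, adjusted p = 0.00632) and Apln (-0.41, adjusted p = 0.0396), where 11.4% of all genes passed. From T36 to T42 it shrank for Emcn (-0.36, adjusted p = 0.0195), where 3.3% of all genes passed.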

How the results depend on the processing

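No member or peak change that passed the test changed sign under an alternative, whereas some changes that did not pass did, such as those of Emcn at T27 (-0.04 to 0.08), Apln at T36 (-0.01 to 0.05) and Slc2a1 at T36 (-0.12 to 0.0038). The count of members called was 2 in all 15 alternatives at T27, 3 to 4 over 17 at T30, 4 in all 7 for any deprivation effect, and 7 to 9 over 34 for time of day. At T36 it was 1 within batch 1 and 1 with only the 2 groups fitted, and 1 to 4 when 1 library was left out. For T42 to T198 together it was 1 with no batch term and 0 to 1 when 1 library was left out, and for promoter peaks 0 to 1. The changes of Slc2a1 and Slco1a4 at T27 and T30, Apln at T30 and Emcn at T36 kept their calls throughout, with a highest adjusted p of 0.0255.

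With the replicate number as a block, 2 members were called at T27, 3 at T30 (Emcn 0.16, adjusted p = 0.0752), 2 at T36 and 9 for time of day. The block also ended the calls of the changed Emcn effect (adjusted p = 0.0626 and 0.0694) and Apln effect (0.0507), of Pecam1 (-0.17, adjusted p = 0.110) at ZT12 minus ZT0 and of the peak beyond Kdr at T27 (1.01, adjusted p = 0.108). With it, Acta2 passed at ZT12 minus ZT6 (-0.50, adjusted p = 0.0172). The numbers mark no shared animal or day.

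Over all genes, the 2-group fit called 2757 against 4372 at T30 and 868 against 1650 at T36, and batch 1 alone 3244 against 5630 for time of day. Over all peaks, leaving out the trend gave 373 against 808 at T36, 607 against 901 at T27 and 688 against 1823 for time of day, and the block 578 against 901 at T27. The cause was not tested. Kdr and Abcc9 fell below the filter at the 25th percentile. T66 rests on 1 ATAC library.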
